A study of Caenorhabditis elegans with 2 samples.

Results

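Regions enriched in chromatin precipitated with PAG-3 were examined at the genes of 3 classes of small nuclear-encoded RNA in Caenorhabditis elegans, namely transfer RNAs (tRNAs), small nuclear RNAs (snRNAs) and small nucleolar RNAs (snoRNAs). A region was included if its summit, the base at which the authors placed the highest point, lay within 500 bp of such a gene. Of 30000 regions listed for both replicates together, 513 met this rule. Of these, 280 lay at tRNA genes, 42 at snRNA genes and 194 at snoRNA genes, and 3 lay at genes of more than 1 class and were counted in each. The rule used gene positions only and no signal.

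PAG-3, a relative of the vertebrate zinc finger factor Gfi1, is known for its part in the fate of neurons. Whole hermaphrodite larvae of the first stage (L1), starved after bleaching and collected 6 h after synchronization, were used for chromatin immunoprecipitation with sequencing (ChIP-seq). All worms were of strain OP154 (unc-119(ed3) III; wgIs154), which carries an integrated transgene for PAG-3 with a C-terminal GFP-FLAG tag, and anti-GFP antibody was used for the precipitation. The 2 biological replicates formed 1 group, with the same genotype, stage and antibody, and no control sample was analysed here. In whole larvae, cells that carry PAG-3 and cells that lack it cannot be told apart, and the labels alone name the precipitated protein.

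tRNA genes are transcribed by RNA polymerase III from promoter elements inside the gene, the A box and the B box, which recruit the factor TFIIIC. Most snRNA genes, including those of the spliced leader RNAs that nematodes join to the 5′ ends of messenger RNAs, are read by RNA polymerase II from a short upstream element bound by the complex SNAPc. snoRNAs guide the chemical modification of ribosomal RNA, and in worms many are encoded inside the introns of other genes while others have promoters of their own.

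The sequences of the leading regions are given first, from the RefSeq copy of the assembly WBcel235, which is ce11. Among the tRNA regions of highest signal were those at C10G8.t1 and R04A9.t1, which are both tRNA-Gln genes with the same 72 bases. They are shown because the same gene sequence stood beside summits with different flanks, of which that at C10G8.t1 was listed by both replicates and that at R04A9.t1 by replicate 1 only. The windows reach 50 bases to each side of the summit, at chrV:5329924-5330024 (minus strand) and chrX:410172-410272 (plus strand), and the gene is that at chrV:5330139-5330210. Capitals mark GAGAGA or its reverse complement, and in R04A9.t1 also the reverse complement of GACGCA.
C10G8.t1 and R04A9.t1, gene: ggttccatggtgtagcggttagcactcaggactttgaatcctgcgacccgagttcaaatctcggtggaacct
C10G8.t1, summit window: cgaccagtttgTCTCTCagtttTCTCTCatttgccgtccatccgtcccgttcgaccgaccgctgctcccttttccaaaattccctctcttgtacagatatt
R04A9.t1, summit window: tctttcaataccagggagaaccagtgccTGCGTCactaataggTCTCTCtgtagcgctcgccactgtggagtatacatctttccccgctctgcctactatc

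The tRNA region next below the thresholded set lay at C02B4.t1, and its summit fell at the 3′ end of the gene. The gene is at chrX:12661164-12661247 (plus strand), and capitals mark the core of the B box, searched as GTTCGANNC on both strands. It is shown because this word was present in 442 of the 612 annotated tRNA genes, whereas neither of the tRNA-Gln genes above held it. Those genes held gttcaaatc, which differs from the searched word only by an A in place of a G. That form was not searched, so the count does not show which genes lack a B box.
C02B4.t1, gene: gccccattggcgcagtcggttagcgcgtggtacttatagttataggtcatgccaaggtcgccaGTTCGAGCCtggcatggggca

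Among the snRNA regions the highest signals were at sls-2.2 and sls-2.1, which encode the spliced leader RNA SL2 that is joined to the downstream messages of operons. The 80 bases before each gene are shown, at chrII:5543518-5543597 and chrII:5844785-5844864 (both plus strand), with the bases that are equal at the same position of both in capitals. They were equal at 68 of 80 positions (85.0%). Below them stand the 80 bases before W05B2.8, at chrIII:10989599-10989678 (plus strand), with the word CGGAACCC in capitals.
sls-2.2, upstream: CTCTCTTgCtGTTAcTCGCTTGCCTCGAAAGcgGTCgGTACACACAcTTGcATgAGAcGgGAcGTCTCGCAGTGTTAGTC
sls-2.1, upstream: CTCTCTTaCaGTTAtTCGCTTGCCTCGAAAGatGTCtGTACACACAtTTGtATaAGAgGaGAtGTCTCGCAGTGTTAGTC
W05B2.8, upstream: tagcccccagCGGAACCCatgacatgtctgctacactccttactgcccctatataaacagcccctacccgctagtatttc

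The snoRNA regions held the highest signal of all the regions at the 3 classes. The windows around the summits at T10B9.11 and F54E7.10 are shown, at chrII:9774306-9774406 (minus strand) and chrIII:5679076-5679176 (plus strand). Capitals mark ATGGCA or its reverse complement, which was present in both. The windows next in signal, at K02C4.8 and K07E1.2, did not hold it, and 3 of the 18 thresholded snoRNA windows did.
T10B9.11, summit window: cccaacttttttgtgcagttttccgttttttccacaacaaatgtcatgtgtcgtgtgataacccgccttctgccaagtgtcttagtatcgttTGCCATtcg
F54E7.10, summit window: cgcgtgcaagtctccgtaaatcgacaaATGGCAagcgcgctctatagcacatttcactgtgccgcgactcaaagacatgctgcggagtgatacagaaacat

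The deposited lists set the frame for every value. Each of the pooled and the 2 replicate lists held 30000 regions ranked by a signal whose scale is not stated, so a signal was read only within its own list. The set thresholded by the authors held 910 regions and was the same as the 910 of highest signal in the pooled list, with a lowest signal of 43.4. Over all pooled regions, 3.03% were in that set, which is the background for the shares below. The median pooled signal was 17.1 and the highest 1509. Intervals given for shares and medians are 95% intervals that cover counting error only, and neighbouring regions are not independent. With 1 group and no control sample, no test between conditions was possible, and classes of regions are described by their values and intervals. The number of reads behind a region was unknown.

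Regions at all 3 classes of genes stood higher in the pooled list than the rest of it. The median rank by signal, where 1 is the highest of 30000, was 9753 at tRNA genes (interval 7613 to 11060), 7840 at snRNA genes (5342 to 13220) and 7658 at snoRNA genes (6291 to 9742). The intervals of the 3 classes overlap, so no order among them can be read. By the same rule in each replicate list alone, the median rank at tRNA genes was 8610 in replicate 1 (7120 to 9866) and 12875 in replicate 2 (11335 to 15236), whose interval reaches the middle of the list. At snRNA genes it was 12833 in replicate 1 (4220 to 19535) and 10939 in replicate 2 (7348 to 17474), and both intervals contain the middle of the list. At snoRNA genes it was 7778 (5077 to 9982) and 9426 (8019 to 11824). The other 29487 regions had a median rank of 15085 (14912 to 15258), and regions at a protein-coding start but at none of the 3 classes had a median rank of 13062 (12697 to 13457). Regions at 2 other classes of small RNA genes had median ranks near the middle of the list. Regions at microRNA genes had a median rank of 14837 (12062 to 19810, n = 92), and those at genes of piRNAs, the small RNAs of the germ line, had one of 15975 (15270 to 16513, n = 1800).

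**Figure D1:**
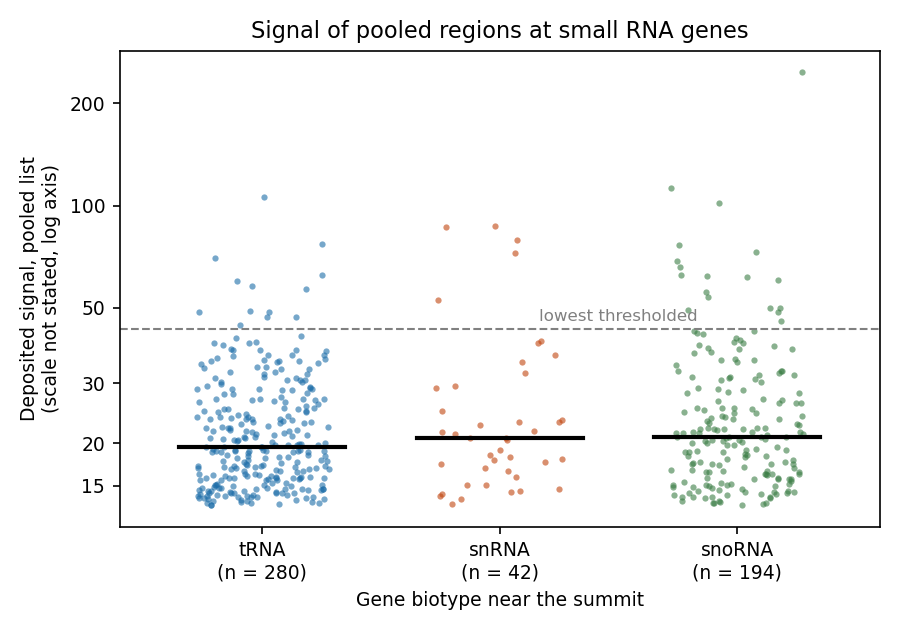
Each point is 1 pooled region, placed by the class of the gene near its summit (horizontal axis) and by its deposited signal on a log axis of unstated scale (vertical axis), with a bar at the median of each class. The medians lie close together at 19.5, 20.7 and 20.9, and 13 tRNA, 5 snRNA and 18 snoRNA regions lie at or above the dashed line at the lowest thresholded signal.

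The thresholded set held 36 of the 513 regions (7.02%, interval 5.11 to 9.56), against 2.96% of the regions at none of the 3 classes (2.78 to 3.16). At snoRNA genes 18 of 194 regions were thresholded (9.28%, 5.95 to 14.2), and at snRNA genes 5 of 42 (11.9%, 5.19 to 25). Both intervals lie above the background of 3.03%. At microRNA genes the share was 6.52% (6 of 92, 3.02 to 13.5), whose lower end is at the background. At tRNA genes 13 of 280 regions were thresholded (4.64%, 2.73 to 7.78), and the interval contains the background. This reading depends on the definition, since the interval lay above the background for summits within 250 bp (13 of 219, 5.94%, 3.50 to 9.89) and for regions that share 1 base with the gene (12 of 186, 6.45%, 3.73 to 10.9). With 1 region per gene, the one of highest signal, the share was 5.28% (15 of 284, 3.23 to 8.53). That count takes the best region and counts a shared summit at each gene, so it is not comparable with a background per region. The share at protein-coding starts was 4.85% (341 of 7026 regions, 4.38 to 5.38). Its interval overlaps those of the tRNA and snRNA regions, and that of the snoRNA regions lies above it.

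Some small RNA genes lie beside a protein-coding start. Such a start was within 500 bp of the summit in 38 of 280 tRNA regions (13.6%), in 12 of 42 snRNA regions (28.6%) and in 42 of 194 snoRNA regions (21.6%). At snoRNA genes the thresholded share was 19% with such a start nearby (8 of 42, 9.98 to 33.3) and 6.58% without one (10 of 152, 3.61 to 11.7). Without such a start, the shares at tRNA and snRNA genes were 4.13% (10 of 242, 2.26 to 7.44) and 13.3% (4 of 30, 5.31 to 29.7). The regions at none of the 3 classes and at no protein-coding start gave 2.37% (533 of 22461, 2.18 to 2.58). The intervals at snRNA and snoRNA genes lay above this value also without protein-coding starts, and that at tRNA genes contained it. Which gene a signal beside both kinds of gene belongs to was not tested.

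Counted by gene, pooled regions were common at tRNA and snoRNA genes. Among annotated starts, 45.3% of 612 tRNA genes (41.4 to 49.2) and 45.4% of 346 snoRNA genes (40.2 to 50.6) had a pooled summit within 500 bp. The background at protein-coding starts was 35% of 19973, and snRNA genes were near it, with 31.0% of 129 (23.7 to 39.4). Within the thresholded set the order was different. The background at protein-coding starts was 2.07%, tRNA starts were near it at 2.45% (15 genes, 1.49 to 4.0), and snoRNA starts were above it at 5.49% (19 genes, 3.54 to 8.42). At snRNA starts the share was 3.88% (5 genes, 1.67 to 8.75), and that interval contains the background. A count over the whole gene instead of its start gave 6 snRNA genes (4.65%).

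**Figure D2:**
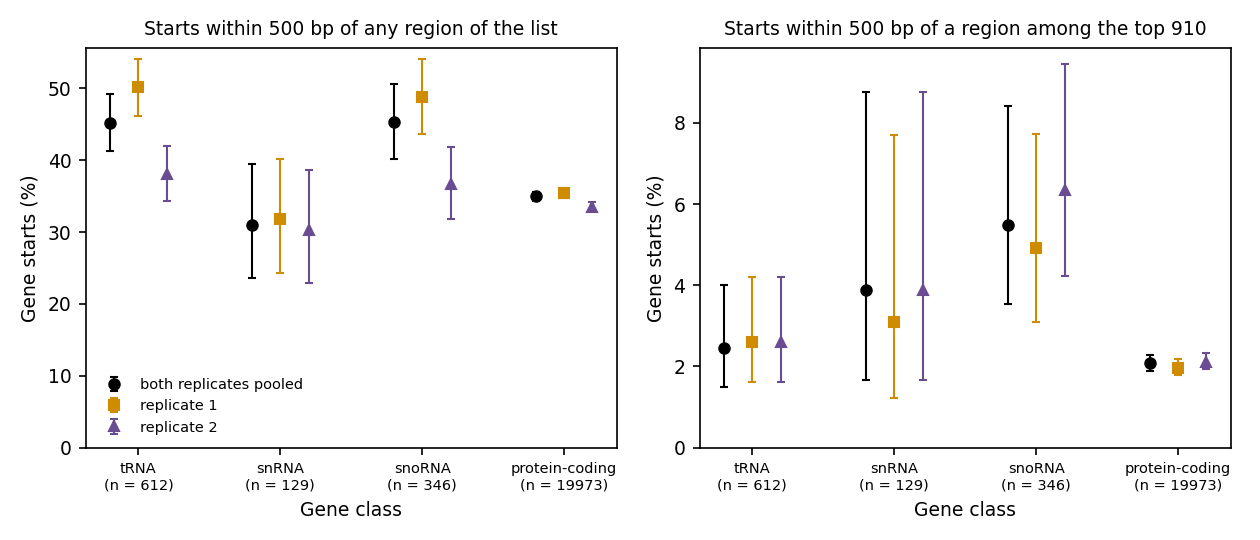
The share of annotated gene starts (vertical axes, percent) with a summit within 500 bp is plotted for 4 classes of genes (horizontal axes), for all listed regions (left) and for the 910 of highest signal (right), with 95% Wilson intervals. In the list of replicate 1, 50.2% of tRNA starts had a region, against 38.1% in that of replicate 2, whereas protein-coding starts stood at 35.4% and 33.5%.

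At tRNA and snoRNA genes the summits were concentrated close to the start, although the rule allowed 500 bp. In the 100 bp before the start, 11.3 summits per 100 tRNA genes and 11.0 per 100 snoRNA genes were found in the pooled list. Protein-coding genes had 4.87 per 100 genes, and the mean over the whole genome was 2.99 per 100 windows of 100 bp. In the first 100 bp after the start, tRNA genes still had 9.31 summits per 100 genes, protein-coding genes 3.53. At snRNA genes these bins held 5.43 and 3.1 summits per 100 genes, near the values at protein-coding genes, and the highest bin was the one before them, with 7.75 from 10 summits. The median distance from the summit to the gene was 80 bp at tRNA genes, 127 bp at snRNA genes and 145 bp at snoRNA genes. Of the tRNA regions, 135 had the summit upstream of the gene, 48 inside it and 97 downstream. Of the 13 thresholded tRNA regions, 10 had it upstream (76.9%, 49.7 to 91.8), 2 inside and 1 downstream, with a median position 43 bp before the start. Of the 249 tRNA genes nearest to a pooled region, 25 had 2 such regions and 3 had 3, with neighbouring summits a median of 378 bp apart.

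**Figure D3:**
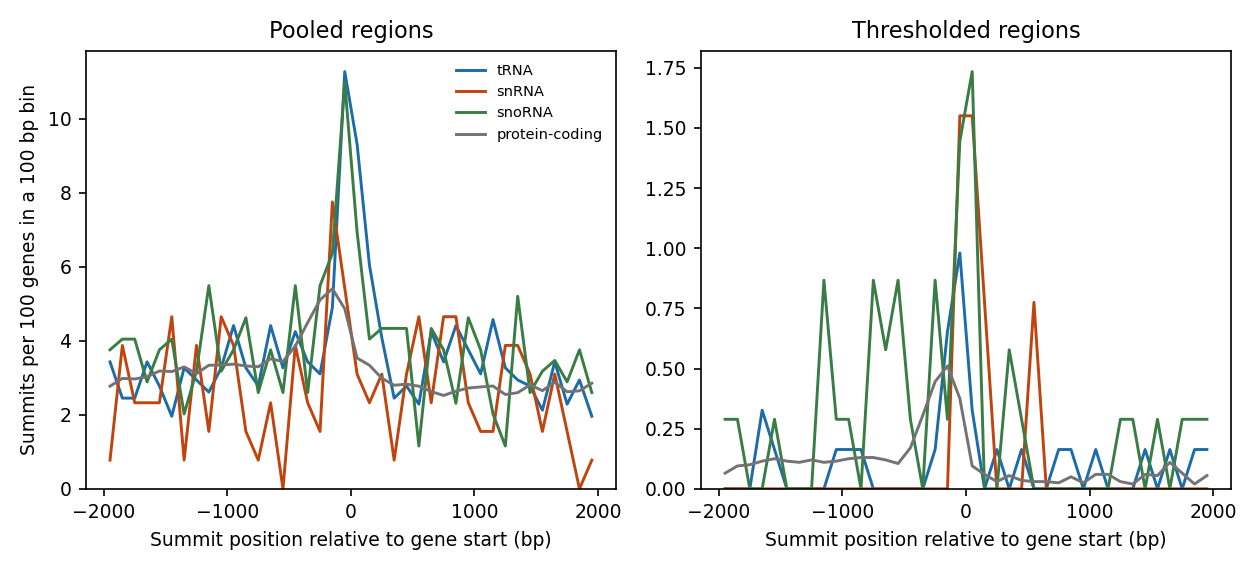
Summits per 100 genes in bins of 100 bp (vertical axes) are plotted against the distance from the annotated gene start, with the direction of transcription to the right (horizontal axes), for pooled regions (left) and thresholded regions (right). The tRNA and snoRNA lines reach 11.3 and 11.0 in the pooled list in the bin before the start, and the thresholded lines rest on few summits, such as 6 at tRNA and 2 at snRNA genes in that bin.

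The replicates did not carry these regions equally. A summit of the replicate 1 list lay within 100 bp of 73.6% of the tRNA regions (68.1 to 78.4), 71.4% of the snRNA regions (56.4 to 82.8) and 76.8% of the snoRNA regions (70.4 to 82.2), against 57.7% of all pooled regions. In the replicate 2 list the shares were 43.9% (38.2 to 49.8), 59.5% (44.5 to 73.0) and 52.1% (45.1 to 59.0), against 47.6% of all pooled regions. The tRNA and snoRNA shares were thus above the background in replicate 1, while all 3 intervals contained it in replicate 2. Against the highest 910 regions of replicate 2 alone, however, 11.9% of the snRNA regions (5.19 to 25) and 9.79% of the snoRNA regions (6.36 to 14.8) were matched, above the 2.81% of all pooled regions, and 4.64% of the tRNA regions (2.73 to 7.78). Of the tRNA regions, 121 were matched in replicate 1 only, 38 in replicate 2 only, 85 in both (30.4%) and 36 in neither. Regions at none of the 3 classes were matched in both in 21.9% of cases.

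Among regions of like rank, the tRNA intervals lay apart from the other regions in both replicates in 1 of 5 tiers. From rank 10000 to 20000, 68% of the 75 tRNA regions were matched in replicate 1 (56.8 to 77.5), against 55.0% of the regions at none of the 3 classes. In replicate 2 the same tRNA regions were matched in 30.7% of cases (21.4 to 41.8), against 44.3%. In the other 4 tiers the tRNA interval in replicate 2 contained the share of the regions at none of the 3 classes, as in the lowest tier, with 24.2% (15.2 to 36.2) against 34.4%. The snoRNA regions that followed the thresholded set, down to rank 3000, went the other way in replicate 2, with 89.5% (75.9 to 95.8) against 71.5%. At the top of the list, within the thresholded set, 27 of the 36 regions at the 3 classes were matched in replicate 2 (75%, 58.9 to 86.2), against 85.4% of the other thresholded regions (82.9 to 87.5). Between the ranks of matched tRNA regions in both replicate lists, Spearman's rho was 0.24 over 85 regions. It was 0.84 over 15 snRNA regions, 0.52 over 74 snoRNA regions and 0.37 over the 6462 regions at none of the 3 classes, all of them regions listed in the same pair of libraries.

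**Figure D4:**
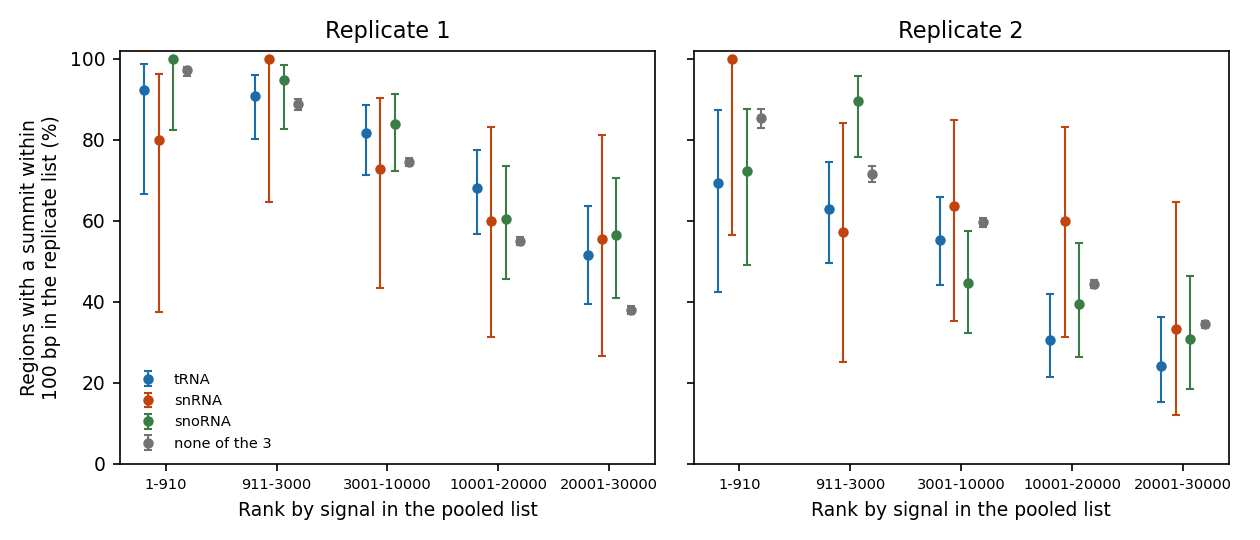
The share of regions with a summit within 100 bp in the list of replicate 1 (left) or replicate 2 (right) is plotted (vertical axis, percent, with 95% Wilson intervals) against the rank of the region in the pooled list (horizontal axes). Below rank 10000 the tRNA points lie above the grey points of the regions at none of the 3 classes in replicate 1 and below them in replicate 2.

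Among tRNA genes the highest region was at C10G8.t1 (WBGene00022921, tRNA-Gln), with a pooled signal of 106 and rank 133. It ranked 181 in replicate 1 and 116 in replicate 2, with the summit 165 bp downstream of the gene, so all lists placed it high. The other of the 2 regions shown above with this tRNA-Gln sequence, at R04A9.t1 (WBGene00023117), had rank 308 in the pooled list and 221 in replicate 1. In replicate 2 its nearest summit was 869 bp away, at rank 20640. Of these 2 genes of equal sequence, R04A9.t1 alone had a region in 1 replicate and not in the other, and the shown flanks differ in sequence.

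At C28G1.t1 (tRNA-Glu) the summit was 170 bp upstream of the gene and 73 bp from the start of the protein-coding gene C28G1.2, with ranks of 241 in the pooled list, 63 in replicate 2 and, 112 bp away, 388 in replicate 1. C42D8.t1 (tRNA-Ile) ranked 389, with ranks of 462 and 323 in replicates 1 and 2, and F52H2.t2 (tRNA-Asn) ranked 431, with ranks of 681 and 333. At these 3 genes the nearest summits of both replicates were among the highest 910 of their lists.

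T14F9.t1 (tRNA-Asp) ranked 473 and B0350.t1 (tRNA-Lys) 489 in the pooled list, and both ranked lower in replicate 2, at 2192 and, 122 bp away, 5559. C37A2.t1 (tRNA-Cys) ranked 678 in the pooled list and 475 in replicate 1, but 21051 in replicate 2. C35E7.t1 (tRNA-Asp) ranked 690, C16B8.t2 (tRNA-Pro) 692, Y104H12A.t1 (tRNA-Glu) 752 and Y7A9D.t3 (tRNA-Val) 757. Of these, C16B8.t2 had a rank of 12174 in replicate 2 against 493 in replicate 1, whereas C35E7.t1 and Y7A9D.t3 stood higher in replicate 2, at 545 and 560, than in replicate 1, at 1625 and 1445. The last tRNA region inside the thresholded set was at F41D9.t3 (tRNA-Asn, signal 44.4, rank 861) and the first outside it at C02B4.t1 (signal 41.3, rank 1031).

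By isotype, thresholded summits lay within 500 bp of 3 of 42 tRNA-Pro genes and of 2 genes each of tRNA-Asn, tRNA-Asp, tRNA-Gln and tRNA-Glu. tRNA-Cys, tRNA-Ile, tRNA-Lys and tRNA-Val had 1 each. These 15 genes rest on 13 regions, since a summit near several genes was counted at each. Of the tRNA-Pro genes, only C16B8.t2 was the nearest gene to a thresholded summit. None of the 55 tRNA-Gly genes had one, where a count of 0 allows a share of up to 5.45%, and none of the 44 tRNA-Arg genes, which allows up to 6.82%. In the pooled list the same families were near the mean of all tRNA genes, with 45.5% of tRNA-Gly genes (33.0 to 58.5) and 45.5% of tRNA-Arg genes (31.7 to 59.9). The counts of thresholded genes by isotype are too small to rank.

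Position in the genome and copy number varied among the tRNA genes. The X chromosome holds 276 of the 612 tRNA genes (45.1%), and 9 of them had a thresholded summit (3.26%, 1.72 to 6.08), against 6 of 336 on the autosomes (1.79%, 0.821 to 3.84). The 9 genes on X rest on 7 thresholded regions and the 6 on the autosomes on 6, so genes that share a summit are not independent. Protein-coding starts on X had a share of 3.0%, those on autosomes 1.93%. A tRNA gene whose exact sequence occurs more than once had a pooled region in 49.3% of 469 cases (44.8 to 53.8), and a gene of unique sequence in 37.1% of 143 (29.6 to 45.2). How reads that fit several copies were placed is not given in the sources used here, and its part in these shares was not tested.

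Of the snRNA regions, those at the SL2 genes led. At sls-2.2 (WBGene00004834) the pooled signal was 87.0 and the rank 186, with rank 73 in replicate 2 and, 138 bp away, rank 291 in replicate 1. At sls-2.1 (WBGene00004833) the signal was 86.4 and the rank 188, with ranks of 256 and 112 in replicates 1 and 2, and the summit lay 21 bp after the start of the gene. sls-2.4 ranked 283 in the pooled list, 251 in replicate 1 and 2002 in replicate 2. The SL2 family as a whole had pooled summits within 500 bp of 13 of its 18 genes (72.2%, 49.1 to 87.5) and thresholded summits at 4 (22.2%, 9.0 to 45.2). These were 3 regions, since the summit at sls-2.2 also lay 455 bp from sls-2.3.

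The SL2 genes are not copies of each other. Their first 22 bases, the length of the leader, took 11 different forms among the 18 genes. Between pairs of the genes, the 80 bases upstream were equal at a median of 40% of positions without gaps, and the pair shown above at 85.0%. All 4 genes with the first 22 bases of sls-2.1, itself 1 of them, had a pooled region nearest to them. Of all 18 SL2 genes, 13 had a pooled summit within 500 bp, whether or not they were the gene nearest to it. The counts are therefore not directly comparable. Whether the regions follow the leader sequence was not tested. By contrast, none of the 12 annotated sls-1 genes, which encode the leader SL1 and alternate with 5S ribosomal RNA genes in tandem repeats, had a pooled summit within 500 bp (a count of 0 allows up to 25%), and none of the 20 annotated ribosomal RNA genes had one. How reads from these repeats were placed is not given in the sources used here.

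Of the other snRNA genes, W05B2.8 (WBGene00014543) ranked 225 in the pooled list with a signal of 79.1, and 250 and 782 in replicates 1 and 2. Its exact sequence occurs at 14 annotated genes, and the summit lay 81 bp after its start. C52E4.8 ranked 576, with ranks of 989 and 468, and its summit was 63 bp before the gene and 332 bp from the start of snr-4, which encodes a core protein of the snRNA particles. It was the last snRNA region inside the thresholded set, and the first outside was at F38E11.10 (signal 40, rank 1116). Outside the SL2 family, the family of smy genes had pooled regions at 3 of 10 members, and 25 of 87 genes without a family name had one (28.7%, 20.3 to 39.0).

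A short upstream word was shared by many snRNA genes. CGGAACCC, found by counting all words of 8 bases in the 100 bases before snRNA genes and so chosen from these sequences, was present on the gene's strand in 31 of 129 snRNA genes, at a median position 61 bp before the start. It was present before 20 snoRNA genes, no tRNA gene and 5 of 19973 protein-coding genes (0.0250%). It was present before 15 of the 38 snRNA genes nearest to a pooled region and before 1 of the 5 nearest to a thresholded one, W05B2.8.

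snoRNA genes gave the highest region of all 3 classes, at T10B9.11 (WBGene00045147). Its pooled signal was 247 and its rank 30, with ranks of 25 and 59 in replicates 1 and 2. The summit lay 408 bp downstream of the snoRNA gene and 414 bp from the start of the protein-coding gene ZK1321.4, so it was close to neither. F54E7.10 (WBGene00044941) followed with signal 113 and rank 116, and 126 and 181 in the replicates. This snoRNA gene lies inside rps-12, which encodes a protein of the small ribosomal subunit, and the summit was 252 bp upstream of the snoRNA and 121 bp from the start of ska-3.

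Other snoRNA summits fell on the gene or directly before it. At K07E1.2 (rank 243), ZK643.9 (281), C51F7.4 (391) and F01D5.12 (413) the summit was inside the gene. At K02C4.8 (rank 145) and T28B8.11 (351) it was 51 and 35 bp upstream. Of these, K07E1.2 ranked 220 and 378 in replicates 1 and 2, and K02C4.8 ranked 118 in replicate 1 and, 111 bp away, 659 in replicate 2. F01D5.12 ranked 359 in replicate 1 and 3249 in replicate 2.

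Replicate 2 had no matching summit at 3 of the remaining named snoRNA regions. F38E11.14 ranked 318 in the pooled list and 249 in replicate 1, with rank 10712 in replicate 2 at a summit 177 bp away, and its pooled summit was 111 bp from the start of wrt-3. At D2021.6 (rank 398, 246 bp from the start of sdha-1) and F09G2.14 (rank 510) the nearest summit of replicate 2 was 1837 and 2741 bp away, so replicate 2 listed no region at either gene. C54G4.16 (rank 429) ranked 698 and 347 in replicates 1 and 2. The last snoRNA region inside the thresholded set was at C29F5.11 (signal 45.7, rank 810) and the first outside at F32B5.17 (signal 42.7, rank 946).

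**Figure D5:**
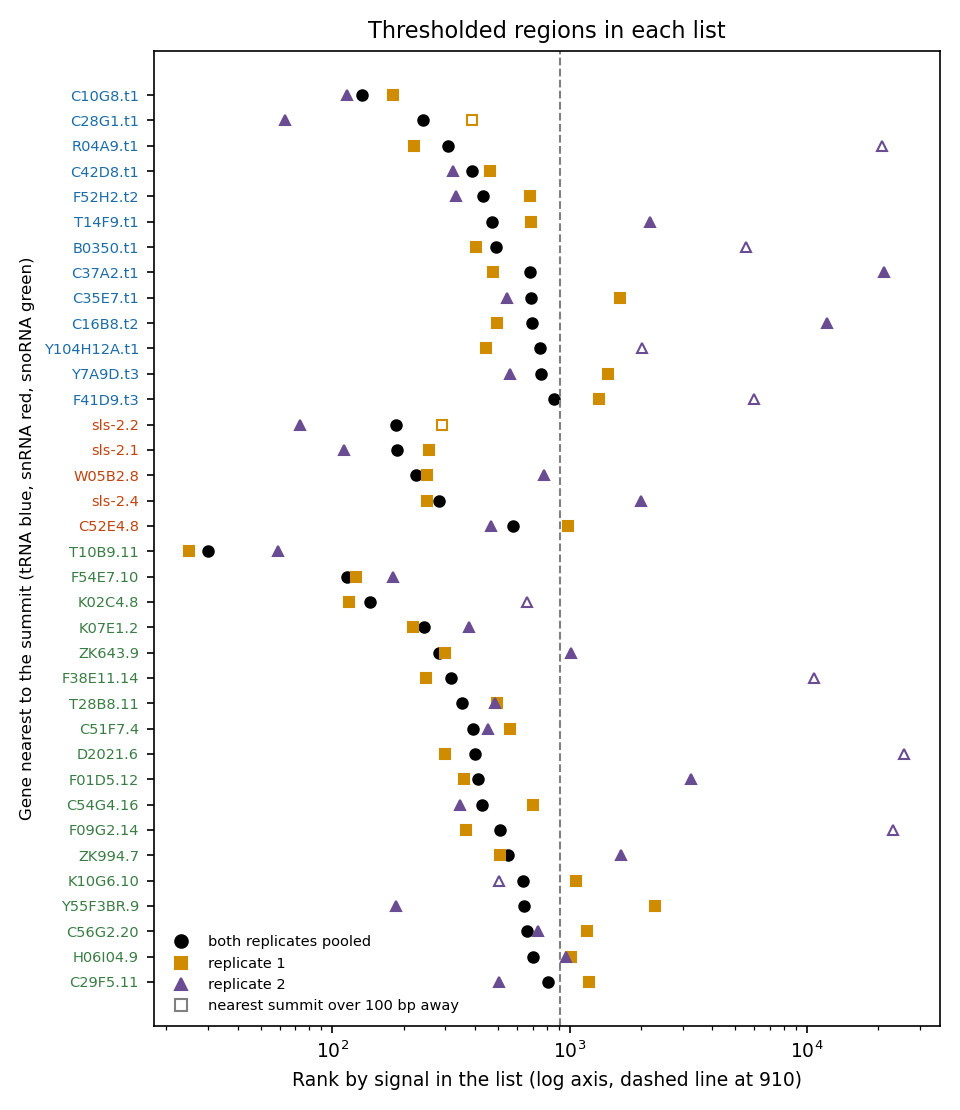
For each of the 36 thresholded regions (vertical axis, named by the nearest gene), the rank by signal (horizontal axis, log scale) is plotted in the pooled list (circles), in replicate 1 (squares) and in replicate 2 (triangles), with open symbols where the nearest summit was more than 100 bp away. Within 100 bp, 25 regions were among the highest 910 of replicate 1, 19 among those of replicate 2 and 11 among both.

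Of the 36 thresholded regions, 11 were among the highest 910 of both replicate lists within 100 bp (30.6%), against 39.6% of the other 874 thresholded regions. No interval was computed for these shares, and with 36 regions no difference is read from them. The 11 regions were 3 tRNA, 2 snRNA and 6 snoRNA regions. A further 14 were among the highest 910 of replicate 1 only and 8 of replicate 2 only, and 3 of neither.

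Whether a snoRNA gene lay inside a protein-coding gene was also recorded. Of 130 snoRNA genes outside protein-coding genes, 58.5% had a pooled summit within 500 bp (49.9 to 66.6), against 38.9% of 216 inside them (32.6 to 45.5). For tRNA genes the shares were 48.4% of 322 outside (43.0 to 53.9) and 44.1% of 290 inside (38.5 to 49.9). The thresholded shares of snoRNA genes were 6.92% outside (3.68 to 12.6) and 4.63% inside (2.53 to 8.31), with overlapping intervals.

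Short sequence words near the summits differed between the classes. All were searched on both strands within 50 bases of the summit. The word GAGAGA was present in 7 of 13 thresholded tRNA windows (53.8%, 29.1 to 76.8), 2 of 18 snoRNA windows (11.1%, 3.1 to 32.8) and 0 of 5 snRNA windows, against 28.8% of all 910. Over the pooled list it was present in 15% of tRNA windows (11.3 to 19.7), against 7.78% of all windows. ATGGCA was present in 8.25% of pooled snoRNA windows (5.14 to 13.0), against 3.81% of all, but in the thresholded set its share of 16.7% of snoRNA windows (5.84 to 39.2) was near the 15.2% of all 910. GACGCA was present in 4 of 13 thresholded tRNA windows (30.8%, 12.7 to 57.6), against 12% of all 910, and in 3.57% of pooled tRNA windows (1.95 to 6.45), an interval that contains the 2.68% of all. The core of the B box, counted only as GTTCGANNC, was present in 41 of 280 pooled tRNA windows (14.6%) and 0.777% of all windows. The tRNA windows often reach into the gene. Of the 13 thresholded tRNA windows, 1 held it. None of these words contains another. Apart from the B box core they were taken from an earlier look at these peaks and so are not independent of them.

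The base composition also differed. The median share of G and C in the window was 39.6% at pooled tRNA summits and 37.6% at snRNA and snoRNA summits, against 34.7% over all pooled regions. In the thresholded set it was 50.5% at tRNA summits, 44.6% at snRNA summits and 42.6% at snoRNA summits, and 43.6% at the regions of none of the 3 classes.

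Genes for the proteins that make or accompany these RNAs were examined as a list. Of 23 genes, 15 had a pooled summit between 1000 bp upstream and 200 bp downstream of the start (65.2%), against 40.6% of all protein-coding genes. A thresholded summit was found at 2 (8.70%), against 2.56% of all. No interval was computed for these shares, and 2 genes are too few to read an excess. Both of these genes encode proteins of the box C/D snoRNA particle. fib-1, the gene of the methyltransferase fibrillarin, had rank 263 with a signal of 74.6 and ranked 389 and 284 in replicates 1 and 2, and nol-58 had rank 490 and ranked 600 and 1429. Their partner nol-56 ranked 2783, and 2313 and 17781 in replicates 1 and 2. The gene of the pseudouridine synthase dyskerin, dkc-1, ranked 1905, and 1009 in replicate 1, with no match in replicate 2. Among genes of the transcription machinery, rpc-1, for the largest subunit of RNA polymerase III, ranked 1434, and 1299 and 9869 in replicates 1 and 2. Of the genes for subunits of SNAPc, snpc-3.4 ranked 1516 (2045 and 4764 in the replicates) and snpc-4 ranked 3969 (2011 and 17547). The other listed genes of this machinery with a pooled summit ranked from 6179 to 17703. The genes brf-1 and tbp-1, for initiation factors, had no pooled summit in the window. Neither had rpc-2, rpac-40, snpc-1.1, snpc-1.3, snpc-3.1 and snpc-3.2.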

How the data were processed

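The 2 biological replicates of 1 group were taken from the labels. Per the labels and file descriptions, the authors deposited ranked lists of 30000 regions for each replicate and for both together, and a set of 910 thresholded by IDR (irreproducible discovery rate), on ce11. The deposited signal column is the authors' height of a region on a scale not stated, and the deposited summit offset in base pairs gave the summit. The aligner, the caller and the handling of reads that match several copies are not named in the labels or headers, and depth was unknown. Lists on ce10 were not used.

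Genes came from Ensembl release 115 on WBcel235, names from RefSeq by WormBase ID. A replicate match was a summit within 100 bp. Shares carry 95% Wilson intervals and medians binomial ones, and a count of 0 was bounded by 3 counts. No test was run, since there was 1 group. Counting was checked on simulated data. Named genes are those nearest to up to 12 thresholded regions of highest signal per class, those last inside and first outside the set, and listed protein genes, of which gar-1 was left out because that symbol denotes a receptor in worms. Sequence was not printed from chromosome I. Members and lists were chosen with earlier results of these data known. Scripts used Python 3.11.15, pandas 2.3.3 and SciPy 1.17.1.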

Additional observations from a re-analysis of the deposited data

How the results depend on the processing

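Of 93 alternatives, 54 left the value within its interval (a count within 1.5 times) and 39 moved it. Whether a direction was reversed was not scored. Counts of regions followed the window. With the summit inside the gene they were 48 at tRNA, 5 at snRNA and 25 at snoRNA genes, within 1000 bp 436, 70 and 301, and with 1 shared base 186, 25 and 105. Within 250 bp snRNA genes had 27.

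The thresholded share with the summit inside the gene was 40% at snRNA (2 of 5) and 20% at snoRNA genes (5 of 25). In the higher-signal part of the set (50%) it was 1.79% at tRNA, 9.52% at snRNA and 5.67% at snoRNA genes, against 1.52% of all pooled regions. With the summit inside the gene the median rank was 5689 at tRNA, 1936 at snRNA and 4722 at snoRNA genes. At tRNA genes it was 7138 within 250 bp, 11334 within 1000 bp and 6653 with 1 shared base. From 1 replicate alone it ranged from 8610 (without replicate 2) to 12875 (without replicate 1) at tRNA genes, from 10939 to 12833 at snRNA genes and from 7778 to 9426 at snoRNA genes.

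Matches in replicate 1 were 61.4% (within 50 bp), 83.2% (within 200 bp) and 88.2% (1 shared base) at tRNA genes and 67.5% (within 50 bp) and 86.6% (1 shared base) at snoRNA genes. In replicate 2 they were 37.5%, 51.4% and 57.1% at tRNA genes, 42.3%, 62.9% and 67.0% at snoRNA genes, and 73.8% (1 shared base) at snRNA genes. Over all pooled regions, the matches in replicate 1 were 49.8% (within 50 bp), 64.6% (within 200 bp) and 67.6% (1 shared base). In replicate 2 those of all pooled regions were 38.5%, 55.9% and 59.5%. The tRNA shares in replicate 2 were below them at these settings. Each tRNA interval contained the value of all pooled regions, however (32.0 to 43.3, 45.6 to 57.2 and 51.3 to 62.8). Only the top 910 of replicate 1 gave 5.00%, 7.14% and 8.25% at tRNA, snRNA and snoRNA genes, and those of replicate 2 gave 4.64%, 11.9% and 9.79%, against 2.96% and 2.81% of all pooled regions. The share of genes with a thresholded summit from 1 replicate alone was 2.61% in both at tRNA genes, 3.1% to 4.65% at snRNA genes and 4.91% to 6.36% at snoRNA genes. No paired analysis was possible because there was 1 group and no test. Read depth was unknown and limits every share.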
